A study of Mus musculus with 8 samples.

Results

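RNA of CD11b+ brain cells was examined for the 9 genes of the MHC class I peptide loading machinery, out of 20308 gene symbols in the data. The 9 genes were listed by name: B2m, Nlrc5, Tap1, Tap2, Tapbp, Tapbpl, Erap1, Pdia3 and Canx. CD11b is a surface integrin subunit carried by microglia, the resident macrophages of the brain, and by other myeloid cells. Cells were enriched with CD11b magnetic beads from the right brain hemisphere of 4 control and 4 CSF1 OE mice, aged 14 or 15 postnatal days, on a mixed background from crossing C57Bl/6 with CD1, and each mouse gave 1 library. CSF1 OE mice carry a transgene, switched through the TRE/tTA system, that makes the secreted form of colony stimulating factor 1 in some GFAP+ cells, so the CD11b+ cells measured here are not the cells meant to express it. Mice are named below by their animal numbers, which are 1827, 1872, 1874 and 1934 for control and 1931, 1932, 1936 and 2019 for CSF1 OE.

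MHC class I molecules display short peptides from inside the cell to CD8+ T cells. A heavy chain folds in the endoplasmic reticulum (ER) with the chaperone calnexin (Canx), pairs with beta-2 microglobulin (B2m), and waits in a loading complex. There the TAP transporter (Tap1 with Tap2) brings in peptides from the cytosol, tapasin (Tapbp) and its partner ERp57 (Pdia3) hold the empty groove open, TAPBPR (Tapbpl) edits peptides outside the complex, and the aminopeptidase ERAP1 (Erap1) trims them to length. NLRC5 acts in the nucleus as the transactivator of class I genes, and interferons are well known to raise much of this pathway in microglia and other cells.

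Promoter windows, running from 250 bases before to 50 bases after the transcription start, were held by the RefSeq promoter table (GRCm38.p6) for 6 of the 9 genes, and Nlrc5, Tap2 and Tapbpl were without one. The stretches of B2m and Canx just upstream of their starts are shown as examples of a member whose groups did not overlap and of one whose groups did, chosen with those values known. Capitals mark matches to 3 motifs searched on both strands: GAAANNGAAA, the core of the interferon-stimulated response element, CCAAT, the box bound by NF-Y, and TGACG, a box like the cyclic AMP response element. ATTGG is CCAAT read on the other strand. The B2m stretch covers bases 160 to 41 before the start, chr2:122147527-122147646 on the plus strand. The Canx stretch covers bases 220 to 21 before the start, chr11:50325694-50325893 on the minus strand.
B2m: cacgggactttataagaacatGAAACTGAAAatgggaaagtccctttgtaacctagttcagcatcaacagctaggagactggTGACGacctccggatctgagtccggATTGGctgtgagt
Canx: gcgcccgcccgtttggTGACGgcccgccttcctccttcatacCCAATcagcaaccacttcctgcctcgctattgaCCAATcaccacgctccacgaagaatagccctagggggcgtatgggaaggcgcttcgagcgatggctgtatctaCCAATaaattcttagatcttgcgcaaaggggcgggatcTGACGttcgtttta

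The B2m stretch holds 1 match to each of the 3 motifs, with the interferon-response core beginning at position -139 from the start. The Canx stretch holds 3 CCAAT boxes, at -178, -145 and -72, and TGACG at -204 and -34, but no interferon-response core. Over whole windows, the interferon-response core was found in 2 of the 6 members, B2m (groups without overlap) and Erap1 (groups with overlap), against 3.44% of 32851 promoter windows of the same length. Tap1, whose groups did not overlap, held none. CCAAT was found in 5 of the 6, against 37.4% of windows, and TGACG in 4 of the 6, against 20.8%. TTCNNNGAA, the gamma-activated site, was found in none of the 6, against 8.3% of windows. These are letter matches, not measured binding sites.

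The libraries summed to between 12053280 and 15475488 expected counts. Values are CPM (read counts scaled to a common library size) on library sizes corrected by the TMM method, and a count of 3 stood for 0.177 to 0.266 CPM, so each of the 9 genes lay above that floor in every library. Differences are given as log2 fold changes of CSF1 OE over control from edgeR's quasi-likelihood test, with Benjamini-Hochberg adjustment over the 13407 genes tested. A gene was called at an adjusted p under 0.05 with a fold past the limits set in the study's methods. Csf1 itself read 282 ± 98.7 CPM (SD, n = 4) in controls and 322 ± 107 CPM (SD, n = 4) in CSF1 OE mice. The 10 microglial markers tested summed to 22183 to 38599 CPM in controls and 28583 to 39763 CPM in CSF1 OE mice, far above the sums for T and NK cells (8.32 to 19.4 CPM over all mice, Ncr1 at 0) and B cells (7.93 to 19.7 CPM, Pax5 at 0). RNA of other cells was nevertheless present: oligodendrocyte markers summed to 2969 to 6211 CPM in controls and 1622 to 5034 CPM in CSF1 OE mice. Among other myeloid cells, monocyte markers summed to 521 to 1394 CPM in controls and 619 to 747 CPM in CSF1 OE mice. Neutrophil markers summed to 44.8 to 102 CPM in controls and 15.9 to 206 CPM in CSF1 OE mice. In such enriched bulk samples, fewer cells of a type and less RNA per cell cannot be told apart.

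All 9 genes passed the filter on low counts, and none of the 9 was called, against 0.388% of genes tested that were called higher. Their log2 fold changes were above 0 in 9 of 9, with a median of 0.17, while the median over all genes tested was -0.034 and 44.8% of genes were above 0. The 9 genes were correlated across mice, so they are not 9 independent observations. Without control 1934 the estimates were -0.049 for Tap2, -0.069 for Tapbp and 0.0028 for Tapbpl. Those for Canx, Pdia3 and Erap1 were then 0.064, 0.12 and 0.15. By role, the light chain, the transactivator and 1 transporter subunit (B2m, Nlrc5 and Tap1) lay higher in every CSF1 OE mouse than in any control mouse, whereas the other transporter subunit, both peptide editors, the trimming enzyme and the folding factors (Tap2, Tapbp, Tapbpl, Erap1, Pdia3 and Canx) overlapped between groups. Of all genes tested, 6.84% were higher in every CSF1 OE mouse. The same 3 genes were the ones higher at an unadjusted p under 0.05, a mark that 10.1% of genes tested reached. With DESeq2's Wald test, used as an alternative, the 3 genes were called, and 1.98% of the genes it tested were called higher.

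**Figure D1:**
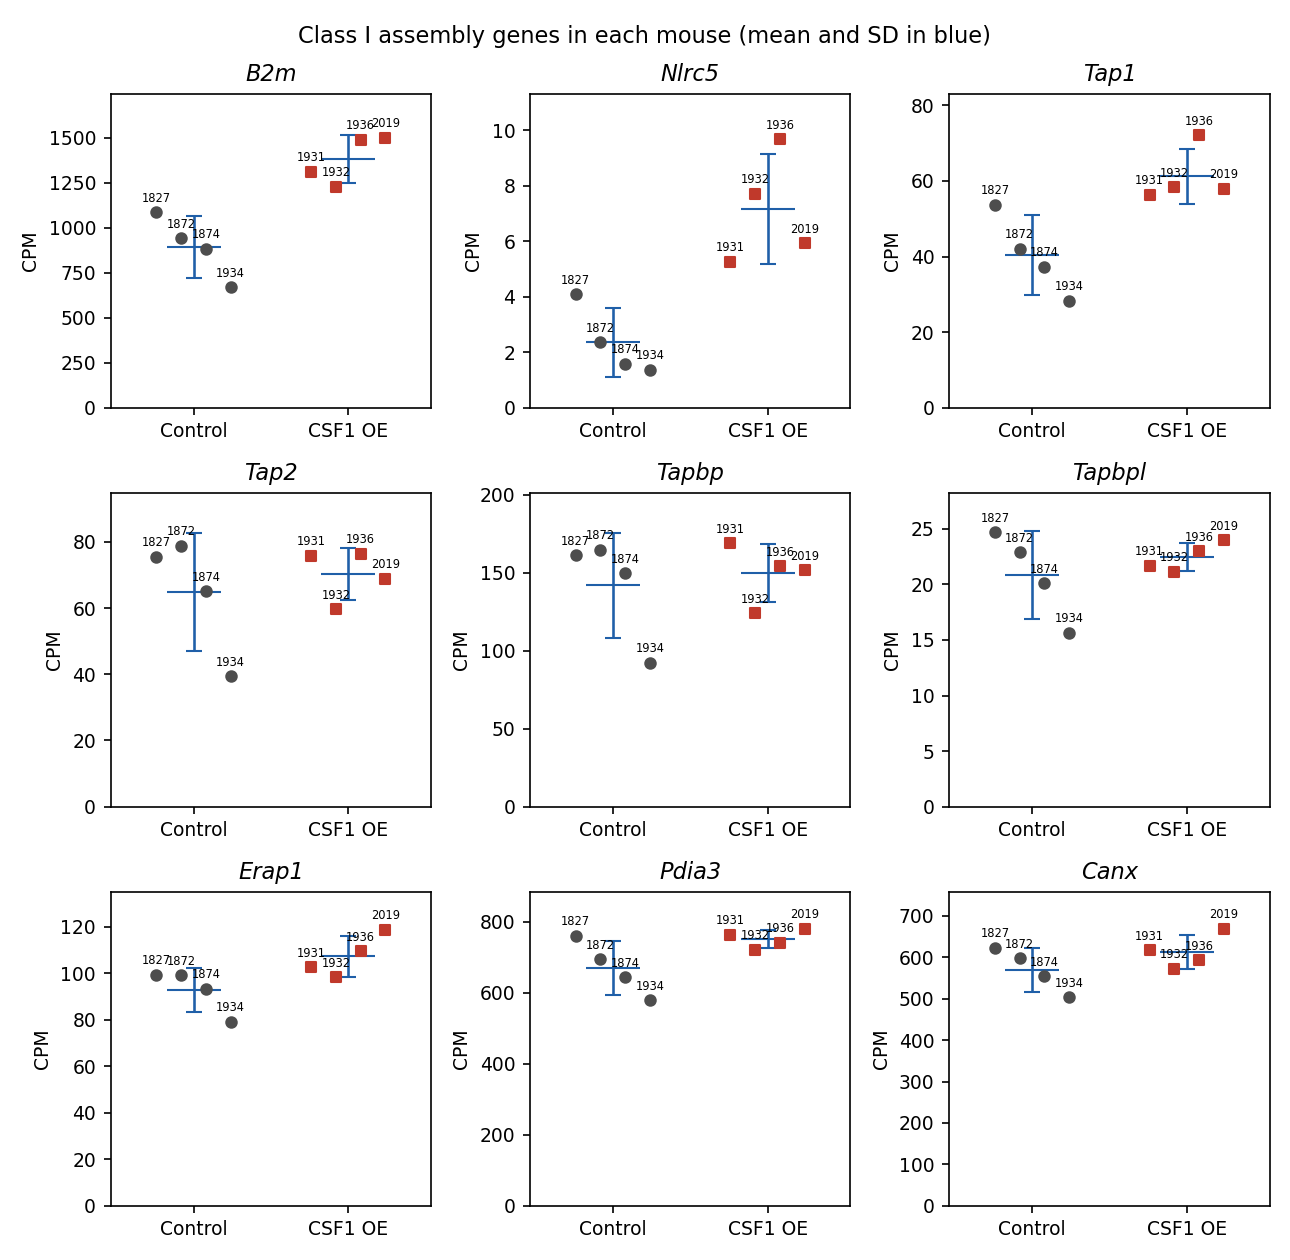
Level of each of the 9 class I assembly genes in CPM (vertical axis, from 0) in each control mouse (grey circles) and each CSF1 OE mouse (red squares), labelled by animal number, with the mean and SD of 4 mice in blue. B2m, Nlrc5 and Tap1 show no overlap between groups, and control 1934 is the lowest mouse in all 9 panels.

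B2m encodes the light chain shared by all class I molecules (chr2:122147686-122153083, plus strand, positions here and below from GENCODE M21 on GRCm38). It read 1086, 942, 883 and 669.8 CPM in control mice 1827, 1872, 1874 and 1934, and 1311, 1229, 1489.7 and 1501 CPM in CSF1 OE mice 1931, 1932, 1936 and 2019. Each control stayed below each CSF1 OE mouse. The fold was 1.54 (95% CI 1.21 to 1.98, log2 fold change 0.63, SE 0.157), with an edgeR p of 0.00311 before adjustment and 0.104 after it.

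Nlrc5 encodes a NOD-like receptor protein that enters the nucleus and acts at class I promoters (chr8:94434356-94527272, plus strand). It read 4.10, 2.35, 1.59 and 1.36 CPM in the control mice in the same order, and 5.26, 7.72, 9.68 and 5.93 CPM in the CSF1 OE mice. It had the fewest counts of the 9 genes, 21 to 142 per library. The fold was the largest of the 9 at 3.04, with the widest interval (95% CI 1.70 to 5.44, log2 fold change 1.60, SE 0.371, adjusted p = 0.0873 by edgeR). Control 1827 stood above the other controls, and without that mouse Nlrc5 was called (log2 fold change 2.02, adjusted p = 0.0417 by edgeR).

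Tap1 and Tap2 encode the paired subunits of the peptide transporter, and both lie in the MHC on chromosome 17 (chr17:34187553-34197225 and chr17:34203527-34216321, both plus strand), on either side of the immunoproteasome gene Psmb8. Tap1 read 53.7, 42.1, 37.3 and 28.3 CPM in the control mice and 56.3, 58.4, 72.0 and 58.0 CPM in the CSF1 OE mice. The gap between the groups was narrow, from 53.7 CPM in control 1827 to 56.3 CPM in CSF1 OE 1931. The Tap1 fold was 1.52 (95% CI 1.14 to 2.02, log2 fold change 0.60, SE 0.181), with an edgeR p of 0.00877 before adjustment and 0.161 after it. Tap2 read 75.5, 78.8, 65.2 and 39.4 CPM in the control mice and 75.8, 59.6, 76.4 and 68.9 CPM in the CSF1 OE mice. No CSF1 OE mouse exceeded the highest control for Tap2. Its log2 fold change was 0.12 (95% CI -0.33 to 0.57, adjusted p = 0.790 by edgeR), an interval that ends just below the estimate for Tap1. Without control 1934 the Tap2 estimate was -0.049.

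The subunits were compared directly by the ratio of Tap2 to Tap1 within each mouse, which does not depend on library scaling. The ratio was 1.41, 1.87, 1.75 and 1.40 in the control mice and 1.35, 1.02, 1.06 and 1.19 in the CSF1 OE mice. Every CSF1 OE mouse had less Tap2 for its Tap1 than any control, with a mean difference of -0.47 on the log2 scale. The two-sided exact permutation test over 70 assignments gave p = 0.0286, the smallest that 4 against 4 mice can give, and p = 0.114 after adjustment over the 4 ratios examined. Tap1 shares 212 exon bases (3.87% of its exon sequence) with its neighbour Psmb9 on the opposite strand, and the kit does not record strand, so reads from that stretch cannot be assigned with certainty. Tap2 in turn shares 533 bases (14.1%) with Gm15821 and 165 bases (4.36%) with Gm20496, both on the opposite strand. Psmb9 averaged 16.5 CPM over all mice, and its log2 fold change was 0.40 (adjusted p = 0.397 by edgeR). Psmb9 was singled out after its values were seen.

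Tapbp and Tapbpl encode the peptide editors tapasin and TAPBPR. Tapbp (chr17:33915899-33929292, plus strand) read 161, 165, 149 and 92.3 CPM in the control mice and 169, 124, 154 and 152 CPM in the CSF1 OE mice. Apart from control 1934, the controls lay inside the range of the CSF1 OE mice. The Tapbp log2 fold change was 0.078 (95% CI -0.33 to 0.49, adjusted p = 0.847 by edgeR), the smallest of the 9, and its sign turned without control 1934 (-0.069) and with either of 2 covariates. Tapbp shares 904 exon bases (24.9%) with Gm19412 on the opposite strand and 149 with Zbtb22. Tapbpl (chr6:125223933-125231860, minus strand) read 24.7, 22.9, 20.1 and 15.7 CPM in the control mice and 21.7, 21.2, 22.97 and 23.99 CPM in the CSF1 OE mice. All 4 CSF1 OE mice lay inside the control range, with a log2 fold change of 0.11 (95% CI -0.22 to 0.43, adjusted p = 0.738 by edgeR). The ratio of Tapbpl to Tapbp differed between groups by 0.021 on the log2 scale (exact permutation p = 0.886 before and after adjustment over the 4 ratios).

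Erap1 encodes the ER aminopeptidase that trims the N-terminal ends of peptides (chr13:74639568-74693201, plus strand). It read 99.4, 99.0, 93.3 and 79.0 CPM in the control mice and 102, 98.1, 109 and 119 CPM in the CSF1 OE mice. In 3 of 4 CSF1 OE mice it exceeded the highest control. Its log2 fold change was 0.21 (95% CI -0.011 to 0.43), with an edgeR p of 0.0598 before adjustment and 0.319 after it. Erap1 shares 834 exon bases (11.5% of its exon sequence) with Cast on the opposite strand.

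Pdia3 and Canx encode general folding factors of the ER that also serve many other glycoproteins. Pdia3 (chr2:121413775-121438687, plus strand) read 759.9, 693, 644 and 579 CPM in the control mice and 763, 720.3, 741 and 779.9 CPM in the CSF1 OE mice. Control 1827 fell among the CSF1 OE mice and the other 3 controls below them. The Pdia3 log2 fold change was 0.17 (95% CI -0.072 to 0.41, adjusted p = 0.460 by edgeR). Canx (chr11:50293961-50325673, minus strand) read 623, 597, 554 and 503 CPM in the control mice and 617, 573, 594 and 669.5 CPM in the CSF1 OE mice. Only CSF1 OE 2019 exceeded the highest control for Canx, and the log2 fold change was 0.11 (95% CI -0.12 to 0.34, adjusted p = 0.628 by edgeR). The ratio of Pdia3 to its disulfide-linked partner Tapbp differed by 0.069 on the log2 scale (exact permutation p = 0.657, or 0.876 adjusted over the 4 ratios).

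Levels of the 9 genes were set beside each other per kilobase of the longest coding transcript. In control mice the order ran from B2m at 1041 ± 201 CPM per kb (SD, n = 4) through Pdia3 at 241 ± 27.7, Canx at 133 ± 12.3 and Tapbp at 49.0 ± 11.6 CPM per kb. Below these lay Tap2 at 18.8 ± 5.18, Erap1 at 16.4 ± 1.69 and Tap1 at 13.7 ± 3.58 CPM per kb, neighbours whose means differed by less than the SD of at least 1 of each pair. Tapbpl followed at 8.86 ± 1.67 and Nlrc5 at 0.310 ± 0.164 CPM per kb. In CSF1 OE mice the first 4 and the last 2 places held the same genes, with B2m at 1608 ± 157 and Nlrc5 at 0.943 ± 0.262 CPM per kb. Tap1, at 20.7 ± 2.47 CPM per kb, moved from place 7 to place 5, next to Tap2 at 20.4 ± 2.28 and Erap1 at 19.0 ± 1.59, which it did not differ from beyond their spread. Tap1's place depended on the length used: with merged exons of all annotated transcripts, chosen after the data had been seen, it held place 8 in control and place 7 in CSF1 OE mice.

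Relative to the mean, control mice varied more than CSF1 OE mice in all 9 genes, a comparison not made over all genes. In CPM, the SD of Nlrc5 was larger in CSF1 OE mice (1.98) than in control mice (1.24). The coefficient of variation over control mice ran from 9.22% for Canx to 52.8% for Nlrc5, and over CSF1 OE mice from 3.46% for Pdia3 to 27.7% for Nlrc5. For B2m it was 19.3% in control and 9.74% in CSF1 OE mice. Control 1934 was the lowest of all 8 mice for 9 of 9 genes, a measure not counted over all genes. Among controls alone it was the lowest for 9 of 9, against 37.6% of all genes tested, and it was the highest for 33.7%. In lists examined below, control 1934 was the lowest control for 9 of 12 heavy chains and 11 of 13 peptide supply genes. The same held for 19 of 25 ER folding genes, 10 of 13 class I transcription genes and 0 of 10 heat shock genes. Control 1827 was the highest control for 7 of the 9, with control 1872 ahead of it for Tap2 and Tapbp, which was likewise not counted over all genes.

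Control 1934 also had the lowest microglial marker sum of all mice, 22183 CPM, against 33623 to 38599 CPM in the other 3 controls. Among controls it held the highest sums for oligodendrocytes (6211 CPM), astrocytes (767 CPM), neurons (359 CPM) and endothelial cells (1628 CPM). Endothelial markers were lower on average in CSF1 OE mice for 10 of 10 markers, with sums of 501 to 1121 CPM against 969 to 1628 CPM in control. Border macrophage markers were lower for 8 of 8, with sums of 2081 to 3189 CPM against 2937 to 4014 CPM. Estimates were also below 0 for 7 of 8 oligodendrocyte and 7 of 8 neuron markers. Microglial markers split 5 to 5, and 6 of 7 neutrophil markers had estimates above 0. Over all genes tested, 44.8% were above 0, and no marker of these cell types was called. For the 3 genes without overlap, the log2 fold changes without control 1934 were 0.52 for B2m, 1.42 for Nlrc5 and 0.48 for Tap1, with adjusted p of 0.118, 0.126 and 0.176 by edgeR. With a covariate for the summed microglial markers, added after the data had been seen, they were 0.66, 1.68 and 0.65, with adjusted p of 0.0169, 0.0368 and 0.0473 by edgeR. A covariate for other cell types was the main axis of variation (first principal component) in the standardized log2 CPM of their markers. It took in endothelial, mural, astrocyte, oligodendrocyte, oligodendrocyte precursor and neuron markers. With it the log2 fold changes of the 3 genes were 0.55, 1.59 and 0.56, with adjusted p of 0.0645, 0.0532 and 0.115 by edgeR. The heat shock genes, which respond to cell stress, were also summed. They read 15463, 11987, 4113 and 12528 CPM in the control mice and 3366, 20365, 3939 and 4970 CPM in the CSF1 OE mice, and 9 of the 10 had estimates below 0. The covariate fitted for these genes was not that sum but the mean of their standardized log2 CPM, each gene weighted equally. With it the log2 fold changes of B2m, Nlrc5 and Tap1 were 0.59, 1.74 and 0.61. Their adjusted p were 0.175, 0.120 and 0.222 by edgeR.

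**Figure D2:**
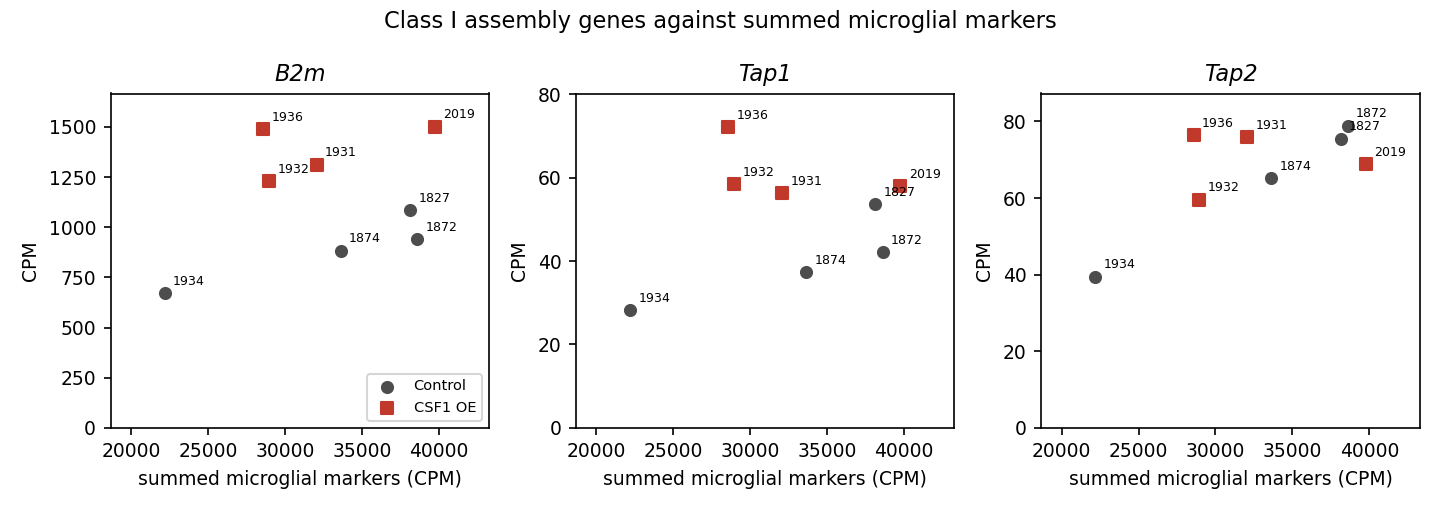
B2m, Tap1 and Tap2 in CPM (vertical axes, from 0) against the summed CPM of 10 microglial markers (horizontal axes), 1 point per mouse labelled by animal number. For B2m and Tap1 every CSF1 OE mouse (red squares) lies above every control (grey circles), and for Tap2 they lie among them. Control 1934 is at the lowest marker sum in each panel, where there is no CSF1 OE mouse to set beside it.

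Animal numbers are not labelled as a batch, but 4 mice with numbers from 1931 to 1936 (control 1934 and 3 CSF1 OE mice) could be set apart from the other 4. Within that range, B2m, Nlrc5 and Tap1 were higher in CSF1 OE than in control by 0.999, 2.31 and 1.13 on the log2 scale. Among the other 4 mice (3 controls and CSF1 OE 2019), the differences were 0.64, 1.204 and 0.40. Tap2 differed by 0.83 within the range and by -0.083 outside it. Each of these values rests on 1 mouse on a side. A fit over all 8 mice with a term for this range called the 3 genes that did not overlap. Adjusted p were 0.0249 for B2m, 0.0407 for Nlrc5 and 0.0458 for Tap1 by edgeR. Erap1 reached an adjusted p of 0.0321 by edgeR in that fit but stayed under the fold limit. The same fit called 1273 of the 13407 genes tested, 302 of them higher, against 59 called without the term.

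B2m pairs with the class I heavy chains, which were taken as the first related list. Of 24 heavy chain symbols, 17 were in the data and 12 were tested. All 12 had estimates above 0, 2 were called higher, 10 were higher in every CSF1 OE mouse, and the median log2 fold change was 0.66. Over all genes tested, 44.8% had estimates above 0, 0.388% were called higher and 6.84% were higher in every CSF1 OE mouse. The called genes were H2-K1 (125 ± 10.5 to 235 ± 18.9 CPM, SD, n = 4 per group, log2 fold change 0.91) and H2-D1 (286 ± 25.4 to 475 ± 40.3 CPM, log2 fold change 0.73), which encode the classical chains. Both calls were lost without control 1872 or 1874, and that of H2-D1 with the heat shock covariate and without any 1 of control 1934 and CSF1 OE mice 1931, 1932 and 1936. The largest estimate was 1.79 for H2-Q6, which varied widely among CSF1 OE mice (36.4 ± 18.7 CPM, SD, n = 4). Reads of near-identical heavy chain genes can be divided differently among paralogs, which was not tested. The summed heavy chains read 648, 588, 586 and 522 CPM in the control mice and 926, 965, 1108 and 962 CPM in the CSF1 OE mice, without overlap. The ratio of B2m to this sum was 1.68, 1.60, 1.51 and 1.28 in the control mice and 1.42, 1.27, 1.34 and 1.56 in the CSF1 OE mice. The groups overlapped, and the mean difference was -0.11 on the log2 scale (exact permutation p = 0.314, or 0.629 adjusted over the 4 ratios).

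**Figure D3:**
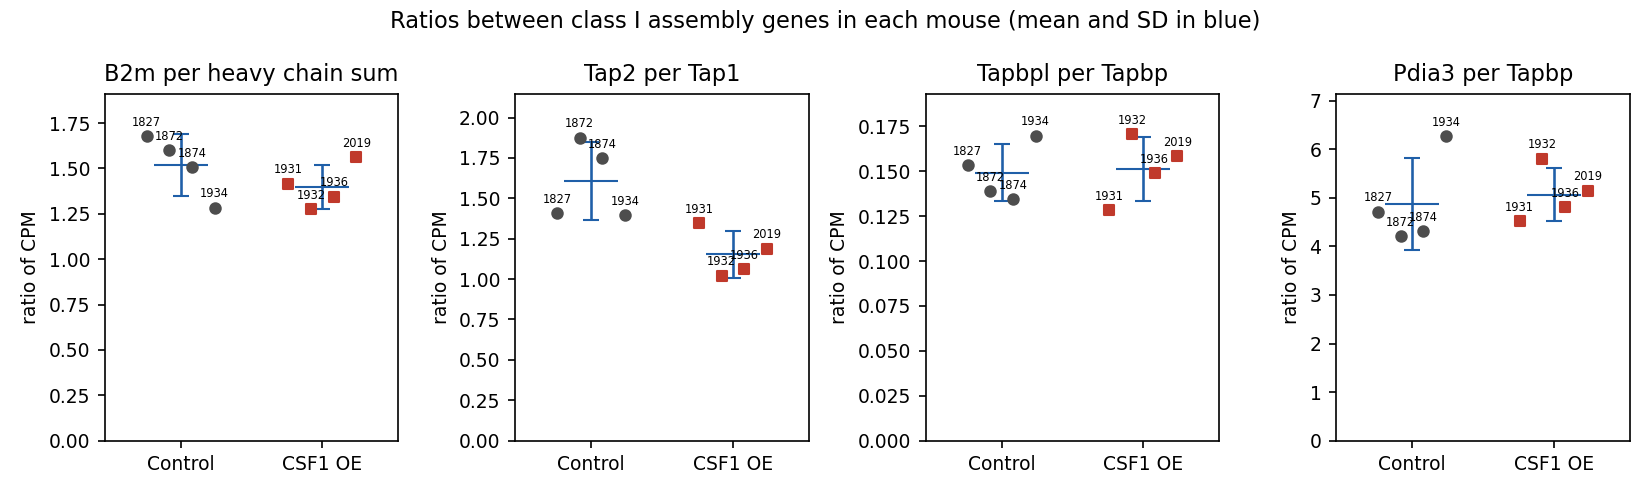
Ratio of CPM for 4 pairs of class I genes (vertical axes, from 0) in each control mouse (grey circles) and CSF1 OE mouse (red squares), labelled by animal number, with the mean and SD in blue. The ratio of Tap2 to Tap1 runs from 1.40 to 1.87 in controls and from 1.02 to 1.35 in CSF1 OE mice, and the other 3 ratios overlap.

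Beta-2 microglobulin also pairs with proteins outside peptide presentation by class I. Of 5 such symbols 4 were tested, 2 had estimates above 0 and 2 below, and none was called by edgeR or DESeq2, with a median log2 fold change of -0.046. At an unadjusted edgeR p under 0.05, 1 was lower (Fcgrt, the neonatal Fc receptor, named after its values were seen). Mr1, which presents vitamin metabolites, had the highest estimate at 0.20, and Hfe, which regulates iron uptake, the lowest at -0.31 (95% CI -0.65 to 0.040).

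Genes that supply peptides to TAP had a median log2 fold change of 0.16. Of 13 tested, 12 had estimates above 0, 4 were higher in every CSF1 OE mouse (6.84% of all genes), and 1 was called higher (0.388% of all genes). The called gene was Psme1, which encodes a subunit of the proteasome activator PA28 (71.9 ± 6.23 to 117 ± 13.2 CPM, SD, n = 4 per group, log2 fold change 0.71). That call was lost with the heat shock covariate and when any 1 of controls 1872, 1874 and 1934 or CSF1 OE mice 1931, 1932 and 1936 was left out. The lowest was Npepps, a cytosolic aminopeptidase, at -0.037. Psmb8, the immunoproteasome gene beside Tap1, read 30.3 ± 8.21 CPM in controls and 48.8 ± 0.920 CPM in CSF1 OE mice (log2 fold change 0.69, adjusted p = 0.109 by edgeR).

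Pdia3 and Canx belong to the wider folding machinery of the ER, for which a list of other genes was examined. Of 25 tested, none was called by edgeR or DESeq2, 3 were higher at an unadjusted edgeR p under 0.05, 21 had estimates above 0, 2 were higher in every CSF1 OE mouse, and the median log2 fold change was 0.064. Over all genes tested, 10.1% were higher at that p and 6.84% in every CSF1 OE mouse. On those measures the list lay near the background. In direction it leaned higher, as 44.8% of all genes had estimates above 0 and their median was -0.034. Control 1934 was the lowest control for 19 of the 25 genes, against 37.6% of all genes tested, and its part in the lean was not tested. The extremes were Sec61b, a subunit of the protein-translocation channel, at 0.43 and Prkcsh, a subunit of glucosidase II, at -0.088. Calr, the calreticulin of the loading complex, read 975 ± 141 CPM in controls and 1010 ± 97.2 CPM in CSF1 OE mice (SD, n = 4 per group, log2 fold change 0.050, adjusted p = 0.867 by edgeR), and was singled out after its values were seen.

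Genes for factors that act on class I promoters had estimates on both sides of 0. Of 14 listed, 13 were tested (Ciita fell below the count filter), none was called by edgeR and 1 by DESeq2, 2 were higher at an unadjusted edgeR p under 0.05 (10.1% of all genes), 7 had estimates above 0 and 6 below, and the median log2 fold change was 0.012. Creb1 had the lowest estimate, at -0.18.

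**Figure D4:**
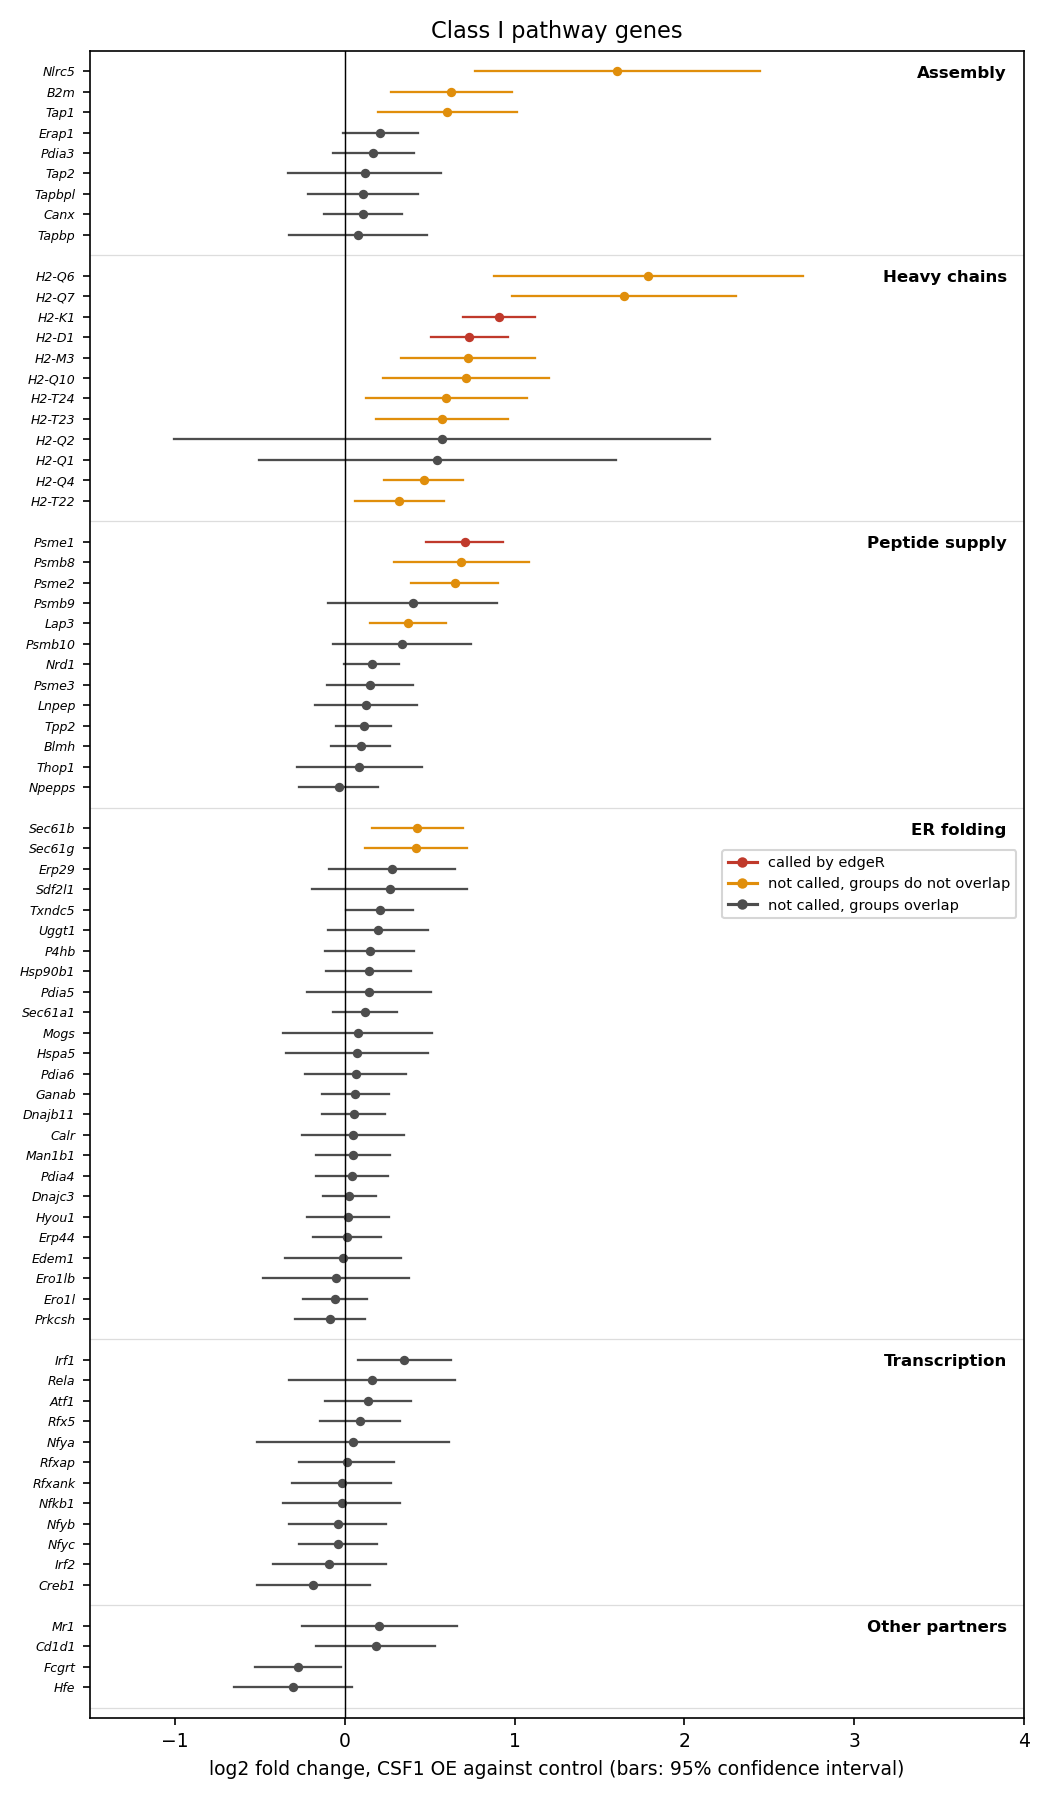
Log2 fold change of CSF1 OE over control (horizontal axis, points with 95% confidence intervals, 4 mice per group) for tested genes of the assembly machinery and of 5 related lists. H2-K1, H2-D1 and Psme1 were called by edgeR (red), Nlrc5, B2m and Tap1 are among the genes not called whose groups did not overlap (orange), and most ER folding genes sit near 0 (grey where groups overlapped).

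The members also differed in which genes followed them across the 8 mice, given here as Pearson correlations of log2 CPM against 10913 other genes, with group difference and cell makeup shared by all points. The gene most like B2m was Aif1 (r = 0.992), which encodes IBA1 and is itself 1 of the microglial markers (log2 fold change 0.60, adjusted p = 0.0971 by edgeR). For Nlrc5 the leading genes were Isoc1 (0.991), the interferon-induced gene Ifi27l2a (0.985) and Cmtr1 (0.984). For Tap1 they were Bcap29 (0.982), Psmb8 (0.976) and Tkt (0.973). Erap1 followed Siglec1 (0.985), Stat5a (0.980) and Fcgr1 (0.978), while Tap2 followed Ppm1m (0.980), Chmp1a (0.976) and Lpcat2 (0.972). Tapbp followed Usf2 (0.984), Tapbpl followed Cd300a (0.974), Pdia3 followed Ak1 (0.996) and Canx followed Acox3 (0.990). Among the members themselves, Tap2 was most like Tapbp (r = 0.980), Nlrc5 was most like Tap1 (0.965), and Nlrc5 was least like Tapbp (0.383).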

How the data were processed

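RNA-seq of CD11b+ cells from 8 mice was used, with 1 library per mouse and no pooling (an unstranded TruSeq kit). Per the submitters' processing notes the tools were bcl2fastq 1.8.4, Bowtie 1.0.0 and RSEM 1.2.7 with the mouse build mm10; the annotation is not given in the sources used here. The authors deposited RSEM expected counts per gene, which were rounded to whole numbers, and a normalized signal, their counts divided by 1 size factor per mouse, which was used for alternatives only. RSEM shares out reads of similar genes by estimate, which can move values among paralogs.

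The test was edgeR 4.0.16 in R 4.3.3 (TMM, filterByExpr, quasi-likelihood) over the whole table with no covariate, and ratios within a mouse were compared by exact permutation tests. The study's methods used another tool, EBSeq, which was not run. Alternatives were DESeq2 1.42.0, limma 3.58.1, other filters and scalings, covariates and each mouse left out. The labels do not say whether the mice were littermates. No libraries agreed within sampling noise. The code was checked on simulated data. The members and lists were chosen with earlier results of these data known. Named genes were the 9 members, each list's called genes and its extremes, and the genes most correlated with a member. Heavy chain symbols missing from the data were not analysed here. 1 gene of the class I transcription list is counted but not reported here.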

Additional observations from a re-analysis of the deposited data

Results flagged for a closer look

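Tap1 in CSF1 OE mouse 1936 read 72.0 CPM, while the other 3 CSF1 OE mice lay between 56.3 and 58.4 CPM. The gap to the nearest mouse took up 0.868 of the group's range, above Dixon's critical value for 4 samples. It was the 1 such value among 26 groups examined, and chance flags about 1 in 20.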

How the results depend on the processing

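Of the 9 loading genes, none was called by edgeR without covariates. DESeq2, a term for animal numbers 1931 to 1936 and the added covariate for microglial markers each called 3 (B2m, Nlrc5 and Tap1), and leaving out 1 mouse called 0 to 1 (Nlrc5, without control 1827). Across the 19 alternatives that gave a p, adjusted values spanned 0.00241 to 0.265 for B2m, 0.00148 to 0.243 for Nlrc5 and 0.0403 to 0.349 for Tap1, and the 3 log2 fold changes stayed above 0. The number higher at an unadjusted p under 0.05 was 6 with the animal-number term and 5 with the microglial covariate, against 3. The share of all genes at that p was not counted in these fits. They called 302 and 226 of 13407 genes higher, against 52 without a covariate. The sign turned for Tap2 when a mouse was left out (-0.049, without control 1934, to 0.23) and for Tapbp (-0.069, without control 1934, to 0.16, and -0.013 with the covariate for other cell types and -0.016 with that for heat shock genes). The log2 difference in the ratio of Tapbpl to Tapbp ranged from -0.039 to 0.098 with 1 mouse left out, with values below 0 without control 1872 (-0.012) or 1874 (-0.027) or CSF1 OE 1932 (-0.039) or 2019 (-0.0031). The ratio of Tap2 to Tap1 stayed below 0, at -0.55 to -0.40, but 3 against 4 mice cannot give an exact p under 0.0571.

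Of the heavy chains, 2 were called, against 7 with DESeq2, 6 with the animal-number term, 6 with the microglial covariate, 4 with the covariate for other cell types, 1 with that for heat shock genes, 0 at an adjusted p under 0.01, 0 when the fold limit was tested by glmTreat, and 0 to 4 with 1 mouse left out. Of the peptide supply genes, 1 was called, against 4 with the animal-number term, 3 with DESeq2, 3 with the microglial covariate, 2 with the covariate for other cell types, 2 with a minimum of 10 counts, 2 with limma at either pseudocount, 0 with the covariate for heat shock genes, 0 at an adjusted p under 0.01, 0 by glmTreat, and 0 to 3 with 1 mouse left out. Of the class I transcription genes, 1 was called with DESeq2, the animal-number term and the microglial covariate, against 0. The cause of these changes was not tested.

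Over all genes, 59 were called, 88.1% of them higher. DESeq2 called 427 (63.0% higher), the animal-number term 1273 (23.7%), the covariate for other cell types 303 (55.8%), the microglial covariate 414 (54.6%), limma 104 or 99, upper-quartile factors 19, the covariate for heat shock genes 9, glmTreat 3, an adjusted p under 0.01 3, and leaving out 1 mouse 3 to 164. Nlrc5 rested on at most 142 counts, which limits its precision. No paired analysis was made because the labels do not pair control with CSF1 OE mice.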
